A study of Rattus norvegicus with 8 samples.

Results

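The 8 genes described here carry glucose into the cell or break it down to lactate. They were measured by total RNA sequencing on the sinoatrial node, where the heartbeat starts, from rats of the Dahl/Salt Sensitive strain (SS/JrHsdMcwiCrl). They were chosen by Ensembl identifier, and all 8 were found among the 32285 genes of the deposited table. The 4 Control libraries came from rats on chow with 0.4% NaCl and the 4 HFpEF libraries from rats on chow with 8% NaCl, for 11 weeks in both groups. HFpEF is heart failure with preserved ejection fraction, which this inbred strain develops with hypertension on salt-rich food. All rats carry the strain's salt-sensitive background, and no group on the salt-rich chow was without the disease model, so effects of salt, blood pressure and heart failure cannot be told apart. Whether the 4 libraries of a group are 4 animals is not stated in the labels, so a p-value measures only the spread between these libraries, which may be technical.

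Glucose enters heart cells through carriers in the cell membrane. GLUT1, the product of Slc2a1, sits in the membrane of most cell types and works without insulin, whereas GLUT4, the product of Slc2a4, is held in vesicles inside muscle and fat cells and moves to the surface on insulin or contraction. Hexokinase 2 (Hk2) then traps glucose by phosphorylating it, and the enzymes encoded by Gapdh, Pgk1, Eno1 and Pkm carry out later steps of glycolysis, of which those of phosphoglycerate kinase and pyruvate kinase yield ATP. Lactate dehydrogenase A (Ldha) turns the pyruvate into lactate. Adult heart muscle draws most of its energy from fatty acids, and a return to glucose with more GLUT1 and less GLUT4 is a textbook feature of the hypertrophied ventricle.

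Hypoxia-inducible factor is known to act on many glycolytic genes through a short core, ACGTG or GCGTG. Promoter windows in RefSeq (build GRCr8, 250 bases before to 50 after the transcript start) matched 6 of the 8 genes by symbol, all except Slc2a4 and Pgk1. The 250 bases before the start are shown for the carrier Slc2a1, the entry enzyme Hk2, the mid-pathway enzyme Gapdh and the lactate step Ldha. These genes were chosen because they span the pathway and hold from 0 to 4 cores in that stretch. The stretches are written 5′ to 3′ along the gene, with capitals marking the cores on either strand.
Slc2a1 (GRCr8 chr5:138002272-138002521, plus strand): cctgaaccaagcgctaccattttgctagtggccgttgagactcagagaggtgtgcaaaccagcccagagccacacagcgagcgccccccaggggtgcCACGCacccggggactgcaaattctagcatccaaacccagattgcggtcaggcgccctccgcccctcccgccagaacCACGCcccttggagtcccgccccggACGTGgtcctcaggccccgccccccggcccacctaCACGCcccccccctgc
Hk2 (GRCr8 chr4:116841276-116841525, minus strand): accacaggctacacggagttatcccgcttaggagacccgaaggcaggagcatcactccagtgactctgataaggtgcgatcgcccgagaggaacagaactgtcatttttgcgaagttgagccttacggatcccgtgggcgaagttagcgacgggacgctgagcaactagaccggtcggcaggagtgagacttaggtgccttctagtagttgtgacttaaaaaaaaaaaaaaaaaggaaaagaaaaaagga
Gapdh (GRCr8 chr4:159652468-159652717, minus strand): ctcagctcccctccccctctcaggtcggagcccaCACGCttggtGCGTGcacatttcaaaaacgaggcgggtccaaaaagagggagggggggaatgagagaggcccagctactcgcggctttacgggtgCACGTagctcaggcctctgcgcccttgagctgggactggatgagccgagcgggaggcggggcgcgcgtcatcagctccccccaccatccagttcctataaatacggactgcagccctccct
Ldha (GRCr8 chr1:106507842-106508091, plus strand): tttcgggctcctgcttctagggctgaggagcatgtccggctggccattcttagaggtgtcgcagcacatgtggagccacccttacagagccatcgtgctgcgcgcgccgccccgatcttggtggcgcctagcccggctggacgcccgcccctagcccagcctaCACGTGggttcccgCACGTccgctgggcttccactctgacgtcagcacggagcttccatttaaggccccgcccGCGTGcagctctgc
Of the 6 matched genes, 4 held a core in a window and 2, Hk2 and Pkm, held none. This counts genes, and Eno1 has 2 windows, while the shares below are of single windows. The stretch of Slc2a1 held 4 cores, that of Gapdh 3, that of Ldha 4 (a pair of them overlapping on the 2 strands of 1 CACGTG) and that of Hk2 0. Over the full 300 bases, ACGTG occurred on either strand in 19.3% of 33465 RefSeq promoter windows, GCGTG in 29.7%, and at least 1 of them in 41.6%. The E-box CACGTG, which contains ACGTG on both strands, was in 6.42% of windows and, among the 6 matched genes, in that of Ldha. The GC box GGGCGG, known as a site for Sp1, was in 33.1% of windows, 3 times in Slc2a1 and in Ldha, once in Pkm and not in Hk2 or Gapdh. Eno1 had windows at 2 alternative starts, one with 1 GCGTG and the other with 1 ACGTG, 1 GCGTG and 2 GC boxes. These matches describe the letters of the windows and were not tied to the expression values.

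The levels below are normalised CPM, the expected counts scaled to a common library total with edgeR's TMM factors. Library totals ran from 31774820 to 38889395 expected counts, and the 8 genes had between 608 and 21479.9 counts in a library, far above the level of 3 counts that a count of 0 would allow. Their summed share of a library was 0.240% ± 0.00370 for Control and 0.229% ± 0.0140 for HFpEF (SD, n = 4 per group). Levels are compared between libraries for 1 gene at a time, since transcript lengths were not used. The counts of Slc2a1 and Slc2a4 were whole in every library, while those of the 6 enzymes were non-whole in all 8, which RSEM gives where reads fit more than 1 gene, so the levels of these 6 are less certain. In bulk tissue, fewer cells of a type and less RNA per cell cannot be told apart, and the tissue could not be checked against its markers because the table carries no gene names.

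None of the 8 genes passed the test between HFpEF and Control, and all had fitted changes under 1.5-fold. edgeR's quasi-likelihood test, adjusted over all 16313 tested genes by Benjamini-Hochberg, called 0 of the 8, where 1.94% of all tested genes were called (1.54% higher and 0.398% lower). None of them reached an unadjusted p under 0.05 either, a level reached by 19.6% of tested genes, and DESeq2 and limma-voom also called 0 of the 8 (7.03% and 1.37% of the genes they tested). The HFpEF and Control libraries overlapped in every one of the 8, against 12.5% of tested genes in which they did not. Over the 8 genes the fitted log2 fold change had a median of -0.09, against 0.00 over all tested genes. Below 0 lay 7 of the 8 fitted values, against 50.9% over all tested genes. Those of Pkm (-0.0009) and Ldha (-0.02) were close to 0, and the count was not tested. The 95% interval of the fitted change lay within 1.5-fold in either direction for all 8 genes, as it did for 64.9% of tested genes. That fit assumes the same spread in both groups, and for Hk2 and Slc2a4 the bound did not hold without some single libraries. Their intervals then reached down to 0.624-fold (Hk2 without HFpEF replicate 1) and 0.651-fold (Slc2a4 without HFpEF replicate 1).

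**Figure D1:**
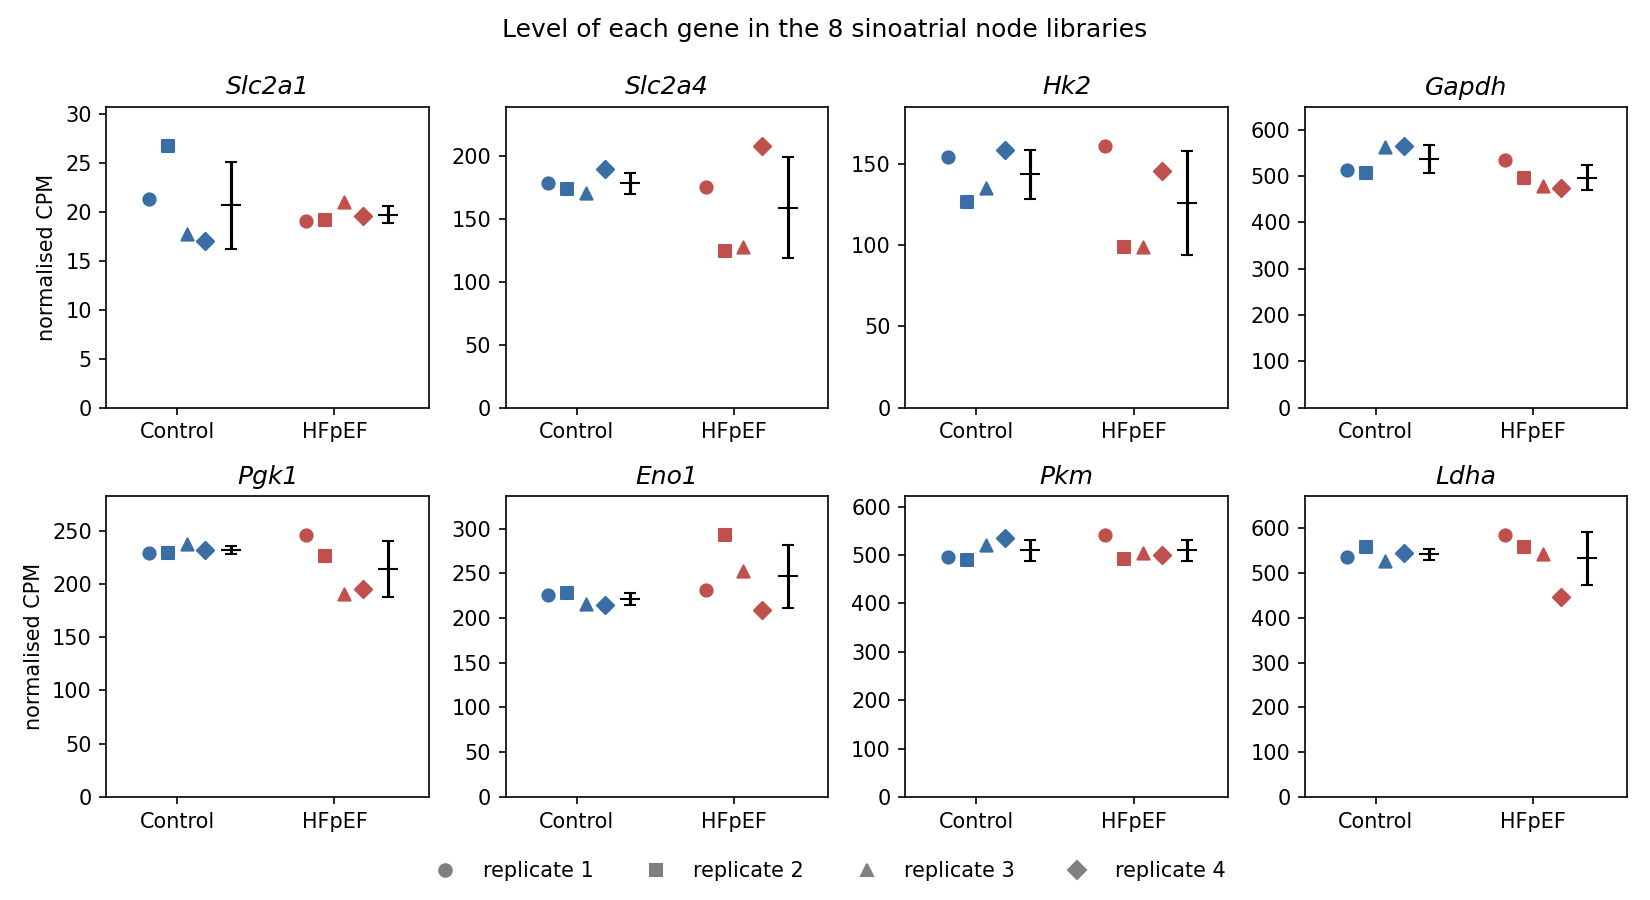
Normalised CPM (vertical axis, from 0) of each gene in the Control (blue) and HFpEF (red) libraries, with marker shapes for replicates 1 to 4 and black bars for the mean ± SD of 4 libraries. The groups overlap in all 8 panels, and Slc2a4 and Hk2 are lowest in HFpEF replicates 2 and 3.

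**Figure D2:**
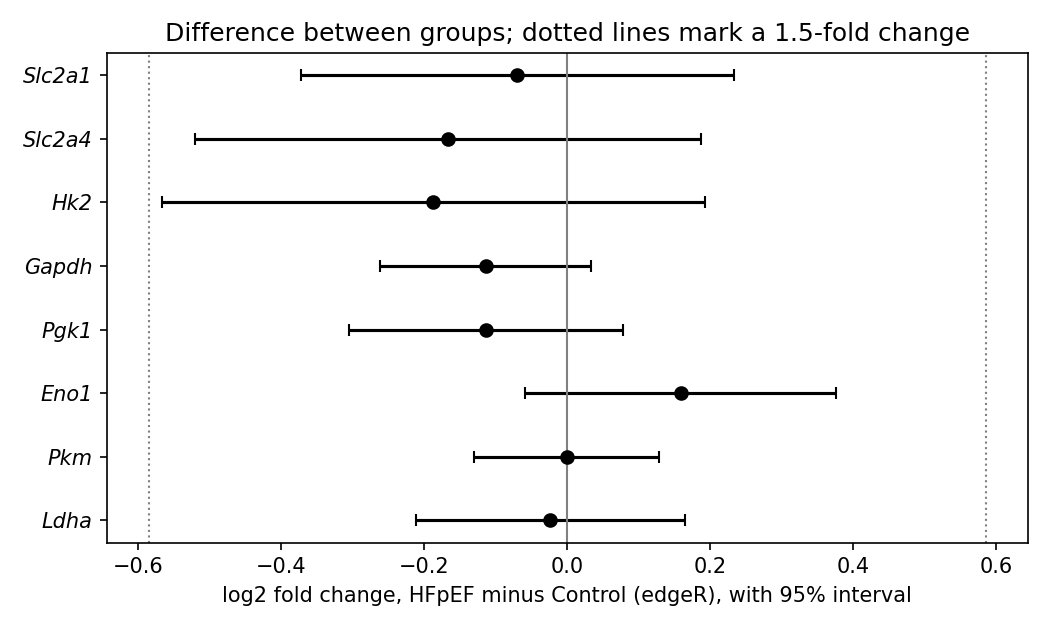
Log2 fold change of HFpEF minus Control (horizontal axis) for each gene, with its 95% interval from edgeR. Every interval includes 0 and lies inside the dotted lines, which mark a 1.5-fold change.

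Slc2a1 (ENSRNOG00000007284), the insulin-independent carrier, had 21.4, 26.8, 17.7 and 17.0 CPM in Control replicates 1 to 4 and 19.1, 19.2, 21.0 and 19.6 CPM in HFpEF replicates 1 to 4. All 4 HFpEF libraries therefore lay inside the range of the Control libraries, as they did in 9.81% of tested genes. The mean was 20.7 ± 4.45 CPM in Control and 19.8 ± 0.886 CPM in HFpEF (SD, n = 4 per group), a log2 fold change of -0.07 with a 95% interval of -0.37 to 0.23 (edgeR adjusted p = 0.820). The Control spread was wider than counting error: the exact Poisson 95% intervals, which cover counting error only, were 25.1 to 28.5 CPM in replicate 2 and 15.7 to 18.4 CPM in replicate 4. Single Control libraries moved the fitted change, which was 0.08 without replicate 2, -0.14 without replicate 3 and -0.15 without replicate 4, in no case called.

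Slc2a4 (ENSRNOG00000017226), the insulin-responsive carrier, had 179, 174, 171 and 190 CPM in Control replicates 1 to 4. In HFpEF replicates 1 to 4 it had 175, 124, 128 and 208 CPM. HFpEF replicates 2 and 3 stood at 69.7% and 71.6% of the Control mean, below every Control library, while replicate 1 lay within the Control range and replicate 4, at 117%, above it. The group means were 178 ± 8.44 CPM in Control and 159 ± 40.1 CPM in HFpEF (SD, n = 4 per group), and the log2 fold change was -0.17 with a 95% interval of -0.52 to 0.19 (edgeR adjusted p = 0.597). Single HFpEF libraries moved this value: it was -0.06 without replicate 2 and -0.32 without replicate 4 (edgeR adjusted p = 0.185, unadjusted p = 0.0288).

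Hk2 (ENSRNOG00000006116), which encodes hexokinase 2, had 154, 127, 135 and 158 CPM in Control replicates 1 to 4 and 161, 99.1, 98.9 and 146 CPM in HFpEF replicates 1 to 4. The same HFpEF libraries as for Slc2a4 were lowest, replicates 2 and 3 at 69.0% and 68.8% of the Control mean, with replicates 1 and 4 at 112% and 101%. The mean was 144 ± 15.1 CPM in Control and 126 ± 31.9 CPM in HFpEF (SD, n = 4 per group), a log2 fold change of -0.19 with a 95% interval of -0.57 to 0.19 (edgeR adjusted p = 0.579). It was -0.33 without HFpEF replicate 1 and -0.08 without HFpEF replicate 2, in neither case called.

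Slc2a4 and Hk2 had the most similar profiles among pairs that include a carrier. Likeness was taken as the root mean square difference of mean-centred log2 CPM over the 8 libraries, 0.118 for this pair. Several pairs of the other enzymes were nearer to each other, the nearest being Gapdh and Pkm at 0.0650. For Hk2, 16 of the 16312 other tested genes (0.0981%) came nearer to it than Slc2a4 did, and for Slc2a4, 65 (0.398%) came nearer than Hk2. The pair was picked by its nearness in these same values, so the small shares are not a test of its likeness. HFpEF replicates 2 and 3 were the lowest of the 8 libraries in both genes, as in 10.1% of all tested genes, and in none of the other 6. These 2 libraries were also farthest from Control on the first principal component of log2 CPM over all tested genes (33.2% of the variance), where HFpEF replicates 1 to 4 stood at 11.5, 51.6, 26.5 and 10.6 and the Control libraries between -30.9 and -17.2. The part of this position in the values of Slc2a4 and Hk2 was not tested.

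**Figure D3:**
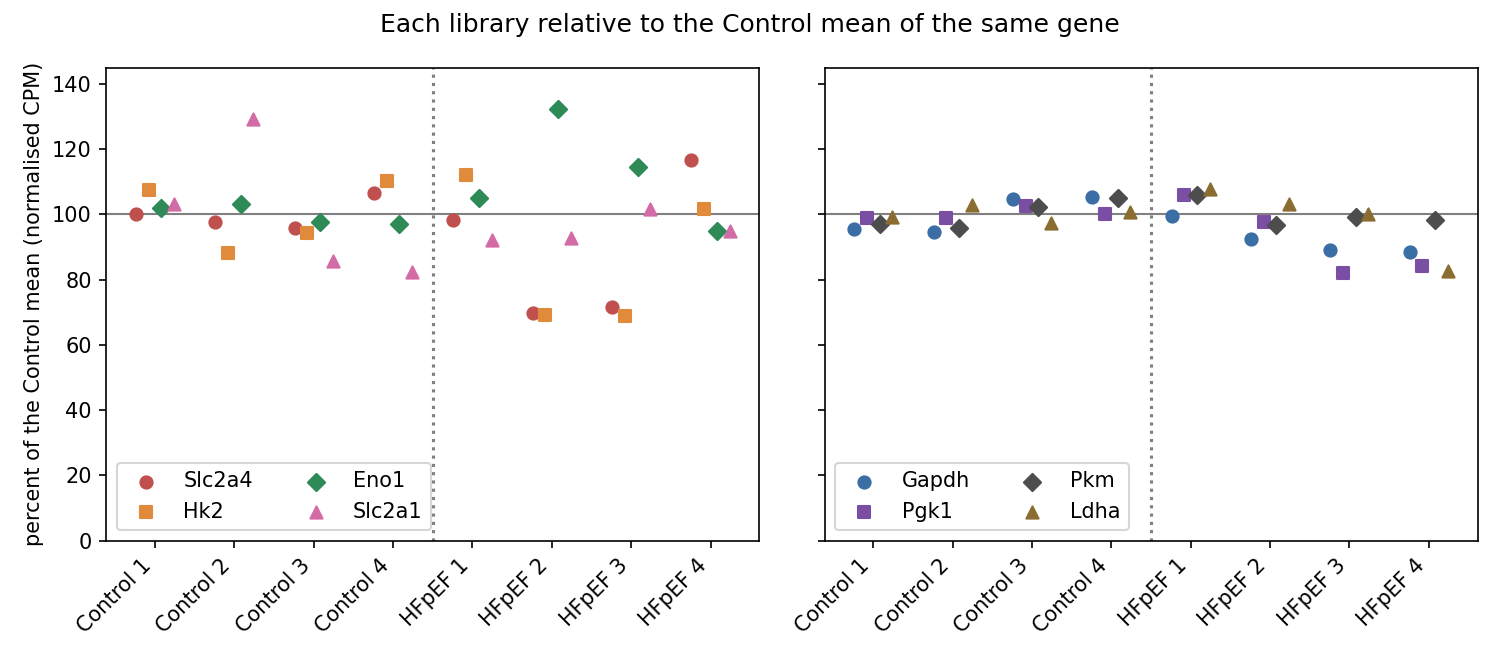
Normalised CPM of each library as a percent of the Control mean of the same gene (vertical axis), for the carriers, Hk2 and Eno1 (left) and for the other 4 enzymes (right). Slc2a4 and Hk2 are near 70% in HFpEF replicates 2 and 3, where Eno1 is at 132% and 115%.

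Gapdh (ENSRNOG00000018630), the glycolytic dehydrogenase often taken as a reference gene, had 513, 507, 563 and 565 CPM in Control replicates 1 to 4 and 534, 497, 479 and 475 CPM in HFpEF replicates 1 to 4. HFpEF replicates 2 to 4 lay below every Control library and replicate 1 inside the Control range, so the groups overlapped through 1 library. The log2 fold change was -0.11 with a 95% interval of -0.26 to 0.03 (edgeR adjusted p = 0.379), from 537 ± 31.1 CPM in Control to 496 ± 26.9 CPM in HFpEF (SD, n = 4 per group).

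Pgk1 (ENSRNOG00000058249), which encodes phosphoglycerate kinase 1, was tightly grouped in Control, with 229, 229, 237 and 232 CPM in replicates 1 to 4. In HFpEF it had 245, 226, 190 and 195 CPM. HFpEF replicates 2 to 4 lay below every Control library, replicate 2 only just. They stood at 97.6%, 82.1% and 84.1% of the Control mean, while replicate 1 was above all Control libraries. The mean went from 232 ± 3.95 to 214 ± 26.3 CPM (SD, n = 4 per group), a log2 fold change of -0.11 with a 95% interval of -0.30 to 0.08 (edgeR adjusted p = 0.498). Without HFpEF replicate 1 it was -0.19 (edgeR adjusted p = 0.198, unadjusted p = 0.0345), and without HFpEF replicate 3 it was -0.06.

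Eno1 (ENSRNOG00000017895), which encodes enolase 1, was the 1 member with a fitted value above 0. It had 225, 228, 216 and 214 CPM in Control replicates 1 to 4 and 232, 292, 253 and 209 CPM in HFpEF replicates 1 to 4. HFpEF replicates 1 to 3 lay above every Control library, and replicate 4 lay below every one. The mean was 221 ± 6.79 CPM in Control and 247 ± 35.3 CPM in HFpEF (SD, n = 4 per group), with a log2 fold change of 0.16 and a 95% interval of -0.06 to 0.38 (edgeR adjusted p = 0.404). It was 0.07 without HFpEF replicate 2 and 0.23 without HFpEF replicate 4 (edgeR adjusted p = 0.167, unadjusted p = 0.0231). In HFpEF replicates 2 and 3 Eno1 was at 132% and 115% of its Control mean, the reverse of Slc2a4 and Hk2, and its profile was farthest from that of Hk2 (root mean square difference 0.396 log2 units, the widest of the 28 pairs).

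Pkm (ENSRNOG00000011329), which encodes the muscle pyruvate kinase, was the steadiest of the 8. It had 496, 489, 521 and 535 CPM in Control replicates 1 to 4 and 541, 493, 505 and 501 CPM in HFpEF replicates 1 to 4. The means of 510 ± 21.7 and 510 ± 21.1 CPM (SD, n = 4 per group) gave a log2 fold change of 0.00 with a 95% interval of -0.13 to 0.13 (edgeR adjusted p = 0.995). Its coefficient of variation over all 8 libraries was 3.89%, and 8.18% of the 1320 genes averaging 100 CPM or more varied less. For Gapdh it was 6.71%, with 31.3% of these genes varying less.

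Ldha (ENSRNOG00000013009), whose enzyme makes lactate from pyruvate, had 537, 557, 527 and 545 CPM in Control replicates 1 to 4 and 584, 558, 542 and 447 CPM in HFpEF replicates 1 to 4. HFpEF replicate 4 alone was below the Control range, at 82.6% of the Control mean, and replicate 1 was above it. Replicate 2 was nearly level with the highest Control library (557.8 against 557.5 CPM in Control replicate 2). The log2 fold change was -0.02 with a 95% interval of -0.21 to 0.16 (edgeR adjusted p = 0.905), between means of 541 ± 12.9 and 533 ± 59.5 CPM (SD, n = 4 per group). It was 0.05 without HFpEF replicate 4 and -0.07 without HFpEF replicate 1, in neither case called.

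The libraries of HFpEF spread more than those of Control in 5 of the 8 genes, as in 67.0% of tested genes. The ratio of the SD of log2 CPM in HFpEF to that in Control was 7.19 for Pgk1, 5.35 for Slc2a4, 4.92 for Ldha, 4.60 for Eno1 and 2.40 for Hk2, against a median of 1.34 over all tested genes. It was 0.962 for Pkm, 0.920 for Gapdh and 0.214 for Slc2a1. The share of tested genes with a lower ratio was 98.5% for Pgk1, 96.4% for Slc2a4, 95.6% for Ldha and 94.9% for Eno1. That share was 79.4% for Hk2, 30.8% for Pkm, 28.7% for Gapdh and 0.729% for Slc2a1. Each SD rests on 4 libraries, and the difference in spread was not tested. The deviating libraries were not the same in each gene. HFpEF replicates 2 and 3 were lowest in Slc2a4 and Hk2, and replicates 3 and 4 in Pgk1. HFpEF replicate 4 was the lowest library in Gapdh, Eno1 and Ldha, 3 of the 8 genes and the most of any library. HFpEF replicate 1 was above the Control range in 5 of the 8 genes and below it in 0. HFpEF replicates 2, 3 and 4 were each below it in 4, and above it in 2, 1 and 1. The matching shares over all tested genes were not computed, so these counts cannot be read as particular to the 8 genes.

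The ratio of Slc2a1 to Slc2a4 asks whether the balance of the carriers' transcripts moved toward that of GLUT1. It does not depend on the scaling of the libraries, but it is a ratio of counts that was not corrected for transcript length, so its size says nothing of how many molecules of each there were. Control replicates 1 to 4 had 11.97, 15.4, 10.4 and 8.97 counts of Slc2a1 per 100 counts of Slc2a4. HFpEF replicates 1 to 4 had 10.9, 15.5, 16.5 and 9.45. Replicates 2 and 3 of HFpEF and replicate 2 of Control were the highest 3, and the groups overlapped over nearly their whole range. Control averaged 11.7 ± 2.75 and HFpEF 13.1 ± 3.42 (SD, n = 4 per group). The ratio was 1.11-fold higher in HFpEF, a difference of 0.15 on the log2 scale and within the spread of the libraries (exact two-sided permutation test over 70 splits, p = 0.571, where 0.0286 is the smallest p possible). Differences from -0.70 to 0.88 on that scale, or 0.616-fold to 1.83-fold, were not rejected by the same exact permutation test at the 95% level. A moderate shift of this transcript ratio in either direction was therefore not excluded by these libraries. The high ratios went with different carriers in the 2 groups. In Control replicate 2 Slc2a1 was at 129% of its Control mean with Slc2a4 at 97.6%, and in HFpEF replicates 2 and 3 Slc2a1 was at 92.7% and 101% with Slc2a4 at 69.7% and 71.6%.

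**Figure D4:**
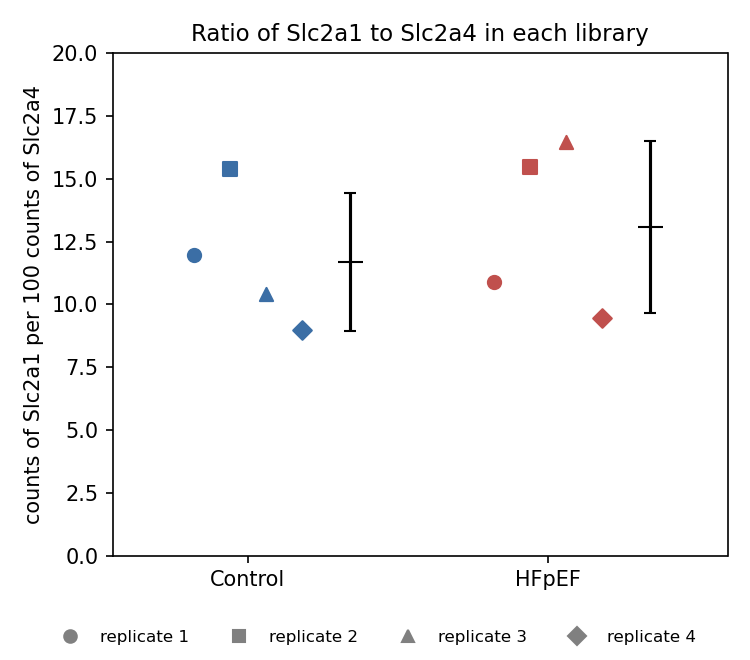
Counts of Slc2a1 per 100 counts of Slc2a4 (vertical axis, from 0) in each Control (blue) and HFpEF (red) library, with marker shapes for replicates 1 to 4 and black bars for the mean ± SD of 4 libraries. The ratio overlaps between the groups, from 8.97 to 15.4 in Control and 9.45 to 16.5 in HFpEF.

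Gapdh is common as the reference in PCR work, and dividing by it adds the same amount to the log2 difference of every gene, since Gapdh itself had a fitted change of -0.11. Of the other 7 members, only Pkm (chosen after its values were seen) then lay wholly above Control, at 0.951 ± 0.0189 of Gapdh in Control and 1.03 ± 0.0316 in HFpEF (SD, n = 4 per group). This is close to the background, since 12.2% of tested genes lay wholly above Control by this ratio, against 6.74% by normalised CPM, and 1.16% lay wholly below, against 5.73%.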

How the data were processed

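Libraries were made from total RNA of the sinoatrial node after ribosomal RNA had been removed, per the labels' protocols. The authors deposited expected counts per Ensembl gene, without normalization; Bowtie2 2.1.0, RSEM 1.2.15 and build rn6 are named in the submitters' processing notes. Not given in the sources used here are the strand setting, read filters and annotation release, so reads of overlapping or antisense genes may not have been told apart. Each of the 8 columns matched 1 library's title.

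Expected counts were rounded to whole numbers and filtered with filterByExpr, which kept 16313 genes holding 99.95% of the counts, including all 8 members. Libraries were scaled by TMM and compared by the quasi-likelihood F test of edgeR 4.0.16 in R 4.3.3, two-sided, with Benjamini-Hochberg adjustment over all tested genes and a threshold of 0.05. Standard errors and 95% intervals of log2 fold changes come from its F statistic. The SD of log2 CPM uses edgeR's cpm with a prior count of 2. A count was taken as whole within 0.005. No pair of libraries in a group matched within sampling noise (chi-square divided by its degrees of freedom, 14.6 to 66.5).

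The identifiers are not paired with names, so of all genes only the 8 members, whose symbols came with the rule that chose them, are named. Lists of other pathway genes and of cell type markers were planned and could not be matched, and are not analysed here. The members and lists were chosen with earlier results of these data known. The rule was to name all 8 members whatever their values. The comparison was repeated with limma-voom (limma 3.58.1) and DESeq2 1.42.0, with upper quartile or RLE scaling, without a filter or with one of 10 counts in every library, with robust = TRUE, with a block for the replicate number, at a threshold of 0.1, and without each library in turn. For the carrier ratio they were the linear scale, rounded counts, the block and each library left out.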

Additional observations from a re-analysis of the deposited data

How the results depend on the processing

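No member was called in any of the 17 alternatives. In the 15 that give a fitted change of their own (robust = TRUE and the threshold of 0.1 do not), the log2 fold changes of Slc2a4, Hk2, Gapdh, Pgk1 and Eno1 kept their sign in all 15. Those of Slc2a1 and Ldha kept it in 14, and that of Pkm, near 0, in 8. The 95% interval reached past 1.5-fold in 9 of 112 edgeR intervals, all for Hk2 or Slc2a4 with 1 library left out. The lowest adjusted p of any member was 0.167, for Eno1 without HFpEF replicate 4. RLE and upper quartile scaling shifted the median log2 fold change by 0.0032 and -0.0021. The number of called genes over all tested genes was 316, against 1244 with DESeq2, 943 at a threshold of 0.1 and 22 to 332 with 1 library left out; the cause was not tested. With the replicate number as a block it was 6, and 0 members were called. Same-numbered libraries correlated at -0.022, -0.056, 0.068 and -0.162 in their deviations from the group means, and were not treated as pairs. The log2 difference in the carrier ratio was 0.15 with a replicate block too (exact sign-flip p = 0.625). With only 4 replicate numbers, the sign-flip test cannot pass at the 95% level whatever the values, so its p decides nothing. The log2 difference ran from 0.03 to 0.30 with 1 library left out, never past an exact permutation test. With 4 libraries in a group, the ratio test has low resolution.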

Other observations

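Among 18 groups of 4 values (8 genes and the carrier ratio in each group), 0 held a library that stood apart by Dixon's test, although the test finds only extreme cases with 4 values. The widest gap was that of Pkm in HFpEF, where replicate 1 was highest (541 CPM) and the gap to the next library took 0.738 of the range, too little for that test.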
